A study of Mus musculus with 2 samples.

Results

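Collagen and laminin chains, the structural proteins of the extracellular matrix and of the basement membrane, were followed in primary mouse myoblasts with and without Wnt3a. The members were taken by name from the platform annotation, as the genes with a symbol made of Col, a number, the letter a and a number, or of Lama, Lamb or Lamc and a digit, with at least 1 probe set assigned to that gene alone. They numbered 52 of the 18193 genes on the array, with 101 probe sets. By family they were 11 fibrillar collagens, 16 basement membrane chains (collagen IV and the laminins) and 25 other collagens. The myoblasts came from newborn Sv129 mice and grew on wells coated with laminin and collagen, so the culture surface held proteins of the kind studied here. Both groups then spent 4 hours in DMEM with 2% horse serum. The control group received nothing further, and the treated group received Wnt3a at 100 ng/ml, a secreted protein that acts through Frizzled receptors and β-catenin. The labels name no pooling of animals and no genetic change.

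Each group was a single array, so no difference below has a replicate check, a standard error or a p-value. The number of arrays limits the precision. A gene was represented by its brightest probe set, and it was measured if this read at least 6 on the log2(intensity + 1) scale, an intensity of 63, on 1 array or both. Differences are Wnt3a minus control on that scale, and the threshold for a clear difference was 0.32, an intensity 25% above that of the lower array. This floor is a fixed brightness and no detection call. Probe sets at the floor made up 48.2% of the control array and 48.5% of the Wnt3a array. All 8 myoblast markers, Myod1, Myf5, Pax7, Des, Cdh15, Vcam1, Chrna1 and Ncam1, were measured on both arrays, none under 9.97 on the log2 scale, and their summed intensity was 41369 on the control array and 42560 on the Wnt3a array. Within this list Vcam1 was lower (-0.63, with other probe sets from -0.60 to -0.51) and Myf5 higher (0.49), while the other 6 differed by 0.32 or less in size. The part of either in the differences below was not tested.

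A collagen is a trimer of chains wound into a rod, and its helical stretches repeat glycine at regular places. Fibrillar collagens pack into the fibres of connective tissue, collagen IV forms the sheet of the basement membrane, and other collagens bind fibres, anchor sheets or cross the cell membrane. A laminin is a cross-shaped trimer of an alpha, a beta and a gamma chain. In muscle it ties the fibre surface, through dystroglycan and integrin receptors, to the basement membrane beneath which satellite cells lie.

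On their brightest probe sets most measured chains differed little between the arrays, and the clear exceptions were higher with Wnt3a. Col8a1 was 1.81-fold higher and Lamb2 1.34-fold higher. These were the only members past the threshold of 0.32 on their brightest probe set, 2 of 26 measured (7.69%), against 2.61% of all 11397 measured genes on the high side. On the low side the count was 0 of 26, against 2.70% of all measured genes. With the mean over each gene's probe sets the low count was 2, Col3a1 (-0.39) and Col5a1 (-0.34), against 1.86%. Only Col8a1 passed 1.5-fold on the brightest probe set, a size that 1.23% of all measured genes reached in either direction. Its mean over probe sets was 0.49. By any size 13 members were higher (against 47.3% of all measured genes) and 12 lower (46.2%, against 51.2%), and 1 read the same on both arrays. The median difference was 0.0020 for the members and -0.0057 for all measured genes, whose central 95% lay between -0.33 and 0.33. In whole cultures, a change in the share of a cell type and a change in RNA per cell cannot be told apart.

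On the deposited scale the class medians did not share 1 direction. Scaled on the spike-in controls, all were above 0 (0.11 for fibrillar, 0.21 for basement membrane and 0.33 for other chains). The 7 measured fibrillar chains had a median of -0.079, with 5 lower and 1 higher (a median of -0.16 with the mean over each gene's probe sets). The 8 basement membrane chains had a median of 0.022, with 5 higher and 3 lower. It was -0.015 with that mean, -0.055 over all 16 without a floor, and -0.024 without probe sets that can match several transcripts. The 11 other collagens had a median of 0.14, with 7 higher and 4 lower, but 0.049 with that mean and 0.031 over all 25 without a floor. The mean over probe sets takes in those below the floor. The spread between probe sets of the same gene, pooled over 5084 genes, was an SD of 0.12, and 14 of the 26 members differed by less than this, as did 64.5% of all measured genes. That SD describes probes and not cultures.

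The directions given here depend on how the arrays are scaled. The 42 probe sets of the spike-in controls, RNAs from outside the sample, were all lower on the Wnt3a array, with a median of -0.19. These probe sets were pooled by name, with no floor, and how each control was added was not checked. Scaling on them would raise the median of all measured genes to 0.19 and each difference below by as much. It would put 8 of 26 members past the threshold on the high side, against 14.8% of all 11751 genes then measured. It would leave 3 lower by any size, Col3a1, Col4a1 and Lamc1, against 9.59% of those genes.

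**Figure D1:**
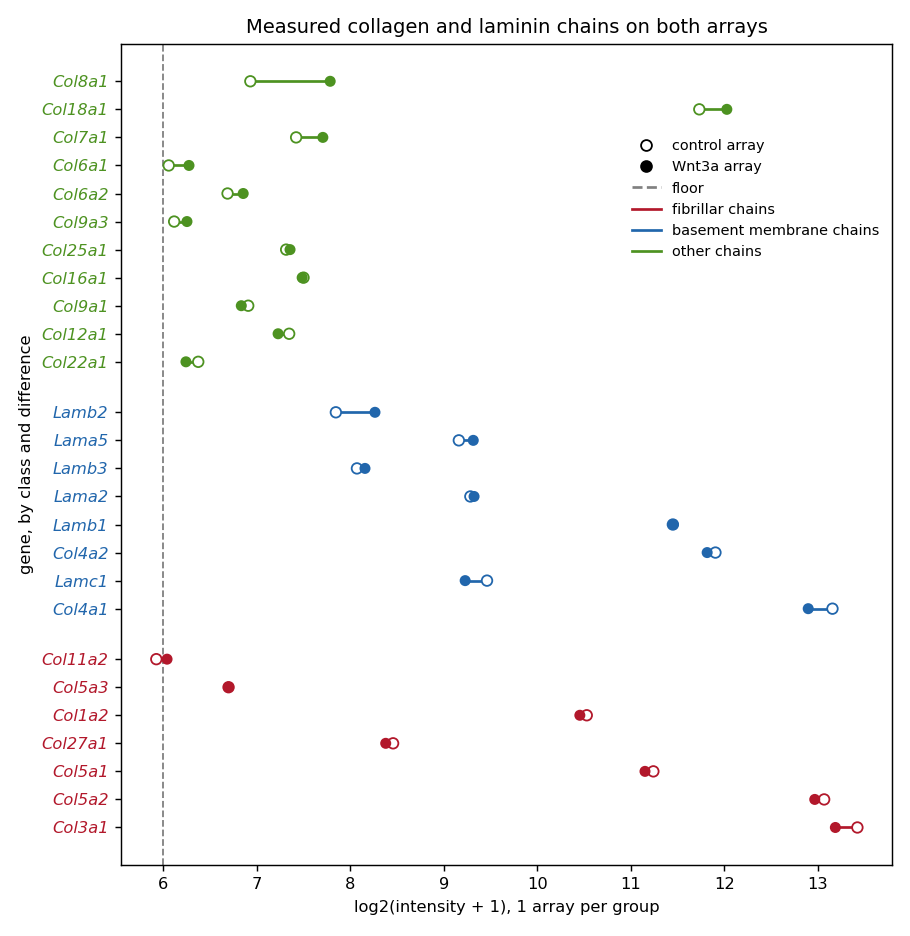
Level of each of the 26 measured chains on the control array (open circle) and on the Wnt3a array (filled circle), as log2(intensity + 1) of the brightest probe set, with the floor of 6 as a dashed line. The longest lines belong to Col8a1 (6.93 to 7.78) and Lamb2 (7.84 to 8.26), while most circles nearly overlap; levels of different genes depend on their probes and are not compared.

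The 26 members below the floor stayed below it on every one of their probe sets. They were the fibrillar Col1a1, Col2a1, Col11a1 and Col24a1, the basement membrane chains Col4a3, Col4a4, Col4a5, Col4a6, Lama1, Lama3, Lama4 and Lamc3, and the other collagens Col6a3, Col6a4, Col6a5, Col8a2, Col9a2, Col10a1, Col13a1, Col14a1, Col15a1, Col17a1, Col19a1, Col20a1, Col23a1 and Col26a1. Their brighter array ran from 3.29 to 5.95 on the log2 scale, the highest being Col2a1, the cartilage collagen. Just inside the floor was Col11a2 at 6.04. Differences below the floor are not interpreted.

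Among the fibrillar chains, the major chains of collagens III and V were lower with Wnt3a on the deposited scale, more so on their dimmer probe sets than on the brightest. Scaled on the spike-in controls, Col3a1 stood at -0.046, Col5a1 at 0.10 and Col5a2 at 0.089. Col3a1, the single chain of collagen III and a partner of collagen I in elastic tissues, read 10993 on the control array and 9335 on the Wnt3a array, a difference of -0.24. Its second probe set gave -0.54 (10.29 to 9.75 on the log2 scale). Both probe sets were thus lower, and the mean over them was -0.39.

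Collagen V starts and limits the growth of collagen fibrils, and its main form joins chains of Col5a1 and Col5a2. Col5a1 read 2420 and 2275, a difference of -0.089, while its other probe sets gave -0.59 (9.61 to 9.01) and -0.35 (8.34 to 7.99). Col5a2 read 8591 and 8012, a difference of -0.10, with -0.33 (10.23 to 9.91) on its second probe set. All 5 probe sets of this pair were lower, over a range from -0.59 to -0.089. With the mean of a gene's probe sets in place of the brightest, Col5a1 (-0.34) and Col3a1 passed -0.32, so that the count of clearly lower members became 2, against 1.86% of all measured genes by that measure.

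Col1a2, a chain of collagen I, read 1477 on the control array and 1403 on the Wnt3a array (-0.074, and -0.040 on its second probe set). Its usual partner chain Col1a1 was below the floor on both of its probe sets. The brighter read 4.89 and 4.86, and the other 4.24 and 4.13. Whether these probe sets detect the Col1a1 transcript was not tested. Col27a1, a fibrillar collagen best known from cartilage, read 350.4 and 331.7 (-0.079), with -0.24 on its second probe set. These chains were slightly lower with Wnt3a wherever a probe set reached the floor. A dimmer probe set of Col1a2, below the floor, gave 0.12, which brought its mean over probe sets to 0.00053.

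The minor fibrillar chains were near the floor. Col5a3, the rarer chain of collagen V, read 103 on both arrays, an identical value that 3.74% of all probe sets also showed. Col11a2, a cartilage chain, read 59.7 and 64.7 (0.11) and was measured through the Wnt3a array alone. Counting probe sets in place of genes, 4 of the 13 fibrillar probe sets at the floor passed -0.32 on the deposited scale. This compares with 3.32% of all 19760 probe sets at the floor. The 4 were from Col3a1, Col5a1 and Col5a2 alone, and probe sets of a gene read the same transcripts.

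**Figure D2:**
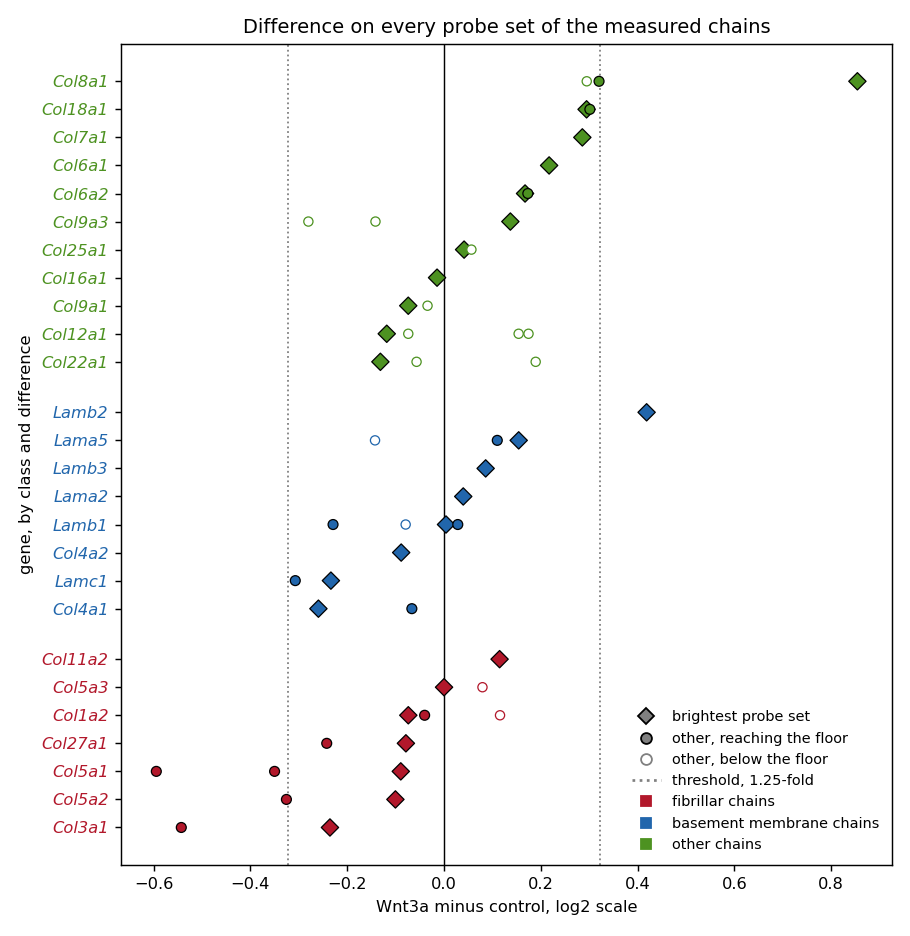
Difference between the arrays (Wnt3a minus control, log2 scale) on every probe set of the measured chains, with diamonds for the brightest probe set, filled circles for others that reached the floor, open circles for others below it, and dotted lines at the threshold. Col8a1 stands at 0.85 on the right, and the fibrillar points at -0.59 (Col5a1) and -0.54 (Col3a1) stand on the left, away from the diamonds of the same genes.

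In the basement membrane, both measured chains of collagen IV were lower with Wnt3a on the deposited scale (-0.070 for Col4a1 and 0.10 for Col4a2 when scaled on the spike-in controls). Col4a1 read 9138 on the control array and 7633 on the Wnt3a array, a difference of -0.26 that was the lowest among the members. Its second probe set gave -0.067 (11.74 to 11.68), and the mean of both was -0.16. Col4a2 read 3836 and 3607 (-0.089). These chains form the common collagen IV trimer of nearly all basement membranes, and their genes lie head to head. The difference between their differences was -0.17. The tissue-restricted chains Col4a3 to Col4a6 were below the floor, with Col4a6 at 5.57 on both arrays.

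The laminin alpha chains, which carry the receptor-binding end of the molecule, were slightly higher. Lama2, the alpha chain of muscle laminin and the gene mutated in a congenital muscular dystrophy, read 622 on the control array and 639.6 on the Wnt3a array, a difference of 0.040. Lama5, the alpha chain of many epithelial and vascular basement membranes, read 571 and 636 (0.15), with 0.11 on its second probe set, while another that did not reach the floor gave -0.14. Lama1, Lama3 and Lama4 were below the floor.

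The beta chains differed from each other. Lamb2, the beta chain concentrated at neuromuscular junctions and in the kidney filter, read 229 on the control array and 306 on the Wnt3a array, a difference of 0.42 on its only probe set, the 193rd highest of all measured genes. Lamb1, the general beta chain, read 2797 and 2805 (0.0040) on its brightest probe set, while its other probe sets at the floor gave -0.23 (9.30 to 9.07) and 0.028, and its dimmest, short of the floor, gave -0.079. The brightest probe set of Lamb1 is of a kind that can match several transcripts. Without such probe sets Lamb1 stood at -0.23. Lamb3, known from the anchoring laminin of skin, read 268 and 284 (0.086), although Lama3, its partner alpha chain, was below the floor.

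Lamc1, the gamma chain shared by most laminins, was lower on both probe sets. It read 704 on the control array and 599 on the Wnt3a array (-0.23), with -0.31 (7.49 to 7.19) on its second probe set. For the laminins whose chains were all measured, the differences can be set side by side. Muscle laminin 211 joins Lama2 (0.040), Lamb1 (0.0040) and Lamc1 (-0.23), and the synaptic form 221 replaces Lamb1 with Lamb2 (0.42). Laminins 511 and 521 use Lama5 (0.15) with the same beta and gamma chains. Lamb2 thus lay 0.41 above Lamb1 and 0.65 above Lamc1 in difference. These are transcripts, and no laminin protein was measured.

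The network-forming and anchoring collagens held the highest difference. Col8a1, a short-chain collagen of vessel walls and of the membrane behind the cornea, read 121 on the control array and 219 on the Wnt3a array. This difference of 0.85 was the 41st highest of 11397 measured genes. Its second probe set gave 0.32 (6.74 to 7.06), just short of the threshold, and another, below the floor, gave 0.29. All 3 probe sets were higher, but by unequal amounts, and their mean of 0.49 corresponds to a smaller difference than the brightest alone. Its partner chain Col8a2 was below the floor. Col7a1, the collagen of the fibrils that anchor skin to its basement membrane, read 170.2 and 208 (0.29) on its only probe set.

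Col18a1, a basement membrane heparan sulphate proteoglycan whose end fragment is endostatin, was 1.23-fold higher. It read 3403 on the control array and 4174 on the Wnt3a array (0.29), and its second probe set gave 0.30 (11.43 to 11.73). Both probe sets were thus higher by nearly the same amount. Its relative Col15a1, another collagen of muscle basement membranes, was below the floor.

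Both measured chains of collagen VI were higher. Collagen VI forms beaded filaments around muscle fibres, and loss of its chains causes muscular dystrophies. Col6a1 read 65.6 on the control array and 76.4 on the Wnt3a array (0.22), close to the floor intensity of 63. Col6a2 read 102 and 115 (0.17), with 0.17 on its second probe set. Col6a3, the third chain of the usual trimer, was below the floor, at 5.49 and 5.41.

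The collagens that decorate fibrils, known as FACIT collagens, were mixed and close to 0. Of 9 such members 5 were measured, 4 of them lower on the deposited scale and none when scaled on the spike-in controls. Col12a1, a collagen of tendon and muscle connective tissue, read 162 on the control array and 149 on the Wnt3a array (-0.12). Col22a1, which marks the muscle-tendon junction, read 81.9 and 74.6 (-0.13). Both lay above 0 as means over all probe sets (0.034 and 0.00031). Of their dimmer probe sets below the floor, some were higher (0.15 and 0.17 for Col12a1, 0.19 for Col22a1) and some lower (-0.074 and -0.057). Col9a1, a cartilage chain, read 119 and 113 (-0.074), and Col16a1 read 179.9 and 178 (-0.014). Col9a3 read 68.3 and 75.2 (0.14). Its mean over probe sets was -0.095, but the other probe sets in that mean (-0.28 and -0.14) were below the floor. Of the membrane-spanning collagens, only Col25a1, which acts in the innervation of muscle, was measured, at 158 and 163 (0.041).

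Among the other collagens, the 14 probe sets at the floor had a median of 0.17 on the deposited scale. Only 1, of Col8a1, passed 0.32, against 2.64% of all probe sets at the floor. Over all classes, 12 members had 2 or more probe sets at the floor, and in 11 of them these agreed in sign. Of all 5084 genes with several such probe sets, 54.7% did. The exception was Lamb1. In 7 of the 12, the other probe sets lay farther from 0 than the brightest and on the same side. The pooled SD between probe sets was 0.17 for these members.

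**Figure D3:**
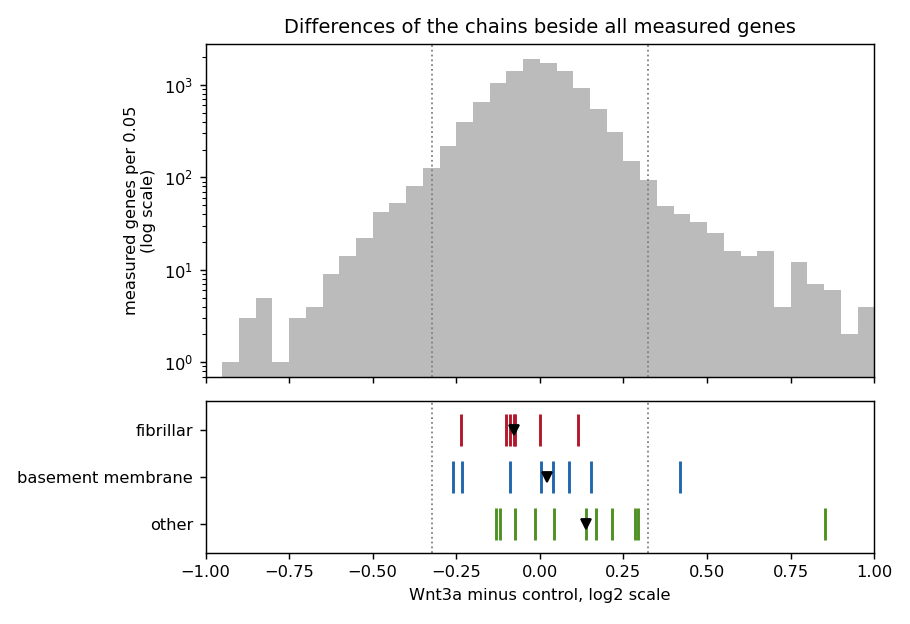
Upper panel, number of measured genes by difference between the arrays (log2 scale, steps of 0.05, counts on a log axis; 36 genes lie beyond the plotted range of 1 in size); lower panel, the measured chains as ticks by class with the class median as a triangle and dotted lines at the threshold. Most ticks fall within the bulk of all genes, and only Lamb2 (0.42) and Col8a1 (0.85) pass the right dotted line.

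Upstream sequences are shown for the chain with the largest difference (Col8a1), for the neighbouring pair Col6a1 and Col6a2, which were both higher, and for Col3a1, which was lower on both probe sets. In each the 250 bases before the start shown overlap no annotated gene. Col6a2 has a second start in the table, downstream of the one shown, whose window overlaps Col6a2 itself and held no match. The sequences are from RefSeq on GRCm38.p6, whose table held 21 of the 26 measured members, and run 5′ to 3′ on the gene's strand. Capitals mark CTTTGA or CTTTGT, core letters of sites for TCF and LEF factors, the DNA-binding partners of β-catenin, on either strand (TCAAAG or ACAAAG on the other).
Col8a1 (chr16:57754738-57754987, minus strand): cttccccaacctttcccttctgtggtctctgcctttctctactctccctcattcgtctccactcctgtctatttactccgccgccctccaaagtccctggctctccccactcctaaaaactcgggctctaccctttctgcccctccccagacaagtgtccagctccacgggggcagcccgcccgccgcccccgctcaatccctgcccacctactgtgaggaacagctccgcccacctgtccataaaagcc
Col6a1 (chr10:76726045-76726294, minus strand): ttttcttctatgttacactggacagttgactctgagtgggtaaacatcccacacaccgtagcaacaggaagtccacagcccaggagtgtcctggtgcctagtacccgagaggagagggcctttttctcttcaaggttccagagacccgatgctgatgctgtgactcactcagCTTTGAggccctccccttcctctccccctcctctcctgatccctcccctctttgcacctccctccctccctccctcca
Col6a2 (chr10:76623631-76623880, minus strand): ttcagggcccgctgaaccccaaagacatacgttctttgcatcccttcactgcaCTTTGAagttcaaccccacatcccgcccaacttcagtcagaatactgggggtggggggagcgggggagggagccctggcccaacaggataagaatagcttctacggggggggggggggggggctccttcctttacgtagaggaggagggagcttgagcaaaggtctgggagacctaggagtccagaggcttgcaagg
Col3a1 (chr1:45311288-45311537, plus strand): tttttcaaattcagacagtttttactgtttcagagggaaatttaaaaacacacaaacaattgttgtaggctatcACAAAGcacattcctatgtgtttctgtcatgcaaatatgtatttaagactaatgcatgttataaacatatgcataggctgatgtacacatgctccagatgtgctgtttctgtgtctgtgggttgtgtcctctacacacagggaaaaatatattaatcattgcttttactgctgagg

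The Col8a1 window held none of these letters. Nor did the windows, not shown, of Lamb2 (0.42), Col18a1 (0.29), Col7a1 (0.29) and Col4a1 (-0.26). On the brightest probe sets each of these chains differed more in size than Col6a1, Col6a2 and Col3a1. By the mean over probe sets, Col3a1 (-0.39) lay farther from 0 than Col18a1 (0.30), Col7a1 (0.29) and Col4a1 (-0.16). Any part of these letters in the differences was not tested. Col6a1 held CTTTGA at position -78 and Col6a2 at position -197, counted from the start, and Col3a1 held CTTTGT on the other strand at position -176. Of 25 windows of measured members 6 held a match (24.0%), against 27.6% of all 32851 windows in the table. A match of letters is no evidence of binding, and no binding was measured.

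On the deposited scale, the measured genes that build and finish collagens all stayed within the threshold on their brightest probe sets. Of all measured genes, 2.61% were past it on the high side and 2.70% on the low side. Of 20 genes for modification and folding 17 were measured, 12 higher and 5 lower, with a median of 0.026 and none past it. The farthest from 0 were P3h2 (-0.21), a prolyl hydroxylase with a preference for collagen IV, and the lysyl hydroxylases Plod1 (0.19) and Plod2 (0.18, and 0.21 on another probe set). Of 15 genes for processing and cross-linking 8 were measured, 3 higher and 5 lower, with a median of -0.043. Loxl1, a cross-linking lysyl oxidase, read 8.61 and 8.29 (-0.32), just short of the threshold, and Loxl4 (0.20) and the transglutaminase Tgm2 (0.18) were higher.

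Of the partners in the matrix, 1 of 11 measured and 1 of 9 measured in the lists below were past the threshold, both lower, against 2.70% of all measured genes. Of 16 basement membrane partners 11 were measured, 8 higher and 3 lower, with a median of 0.062. Ntn1, a laminin-related guidance protein, read 8.22 and 7.81 (-0.41). Tinagl1, a laminin-binding protein, stood at -0.18, and Hspg2, the proteoglycan perlecan, at 0.14 with 0.10 on another probe set. Of 17 fibril-associated matrix proteins 9 were measured, 4 higher and 5 lower, with a median of -0.044. Ogn, a small leucine-rich proteoglycan that binds collagen fibrils, stood at -0.41 with -0.52 on another probe set. Matn2 crossed the floor (5.92 to 6.23), and Tnc, an adhesion-modulating glycoprotein, stood at 0.17.

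Of 16 collagen and laminin receptors 9 were measured, 3 higher and 5 lower and 1 the same on both arrays, with a median of -0.018. None was past the threshold on the deposited scale, against 2.61% of all measured genes on the high side and 2.70% on the low side. Itga7, the main laminin-binding integrin chain of muscle, stood at -0.26, and Itga3, another laminin-binding chain, at -0.20 with other probe sets from -0.26 to -0.093. Itgb4, a partner chain in laminin anchorage of epithelia, stood at 0.19.

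Other cell types that make collagens and laminins were looked for by their markers. Of 14 fibroblast markers 13 were on the array and 3 measured, Fbln1 (10.46 and 10.41), Dpep1 and Scara5, while Pdgfra, Dcn, Lum, Dpt and Thy1 were below the floor on both arrays. The summed intensity of the fibroblast list was 1873 on the control array and 1842 on the Wnt3a array. For the Schwann cell list, with 4 of 6 measured, it was 781 and 821, with Sox10 at 7.35 and 7.43, Erbb3 at 8.58 and 8.71 and Mbp at 6.85 and 6.77. For the smooth muscle and pericyte list, with 3 of 8 measured and Myh11 and Pdgfrb below the floor, it was 9626 and 11767, led by Acta2 (0.33) and Des (0.32), which myoblasts also express, while Cspg4 was lower (-0.22). The endothelial sum was 285 and 244, with 2 of 8 measured and Pecam1 and Cdh5 below the floor. Of these 2, Tek read 6.16 and 5.34 (-0.82), at the floor on the control array alone, and Kdr 6.06 on both. The leukocyte sum was 530 and 516, with 4 of 8 measured and Ptprc below the floor, and their brightest probe sets gave -0.28 for Laptm5, -0.20 for Lyz2, -0.15 for Fcer1g and -0.035 for Csf1r. Other probe sets ran from -0.18 to 0.21 for Laptm5 and were both at 0.36 for Csf1r. The part of any cell type in the differences above was not tested.

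**Figure D4:**
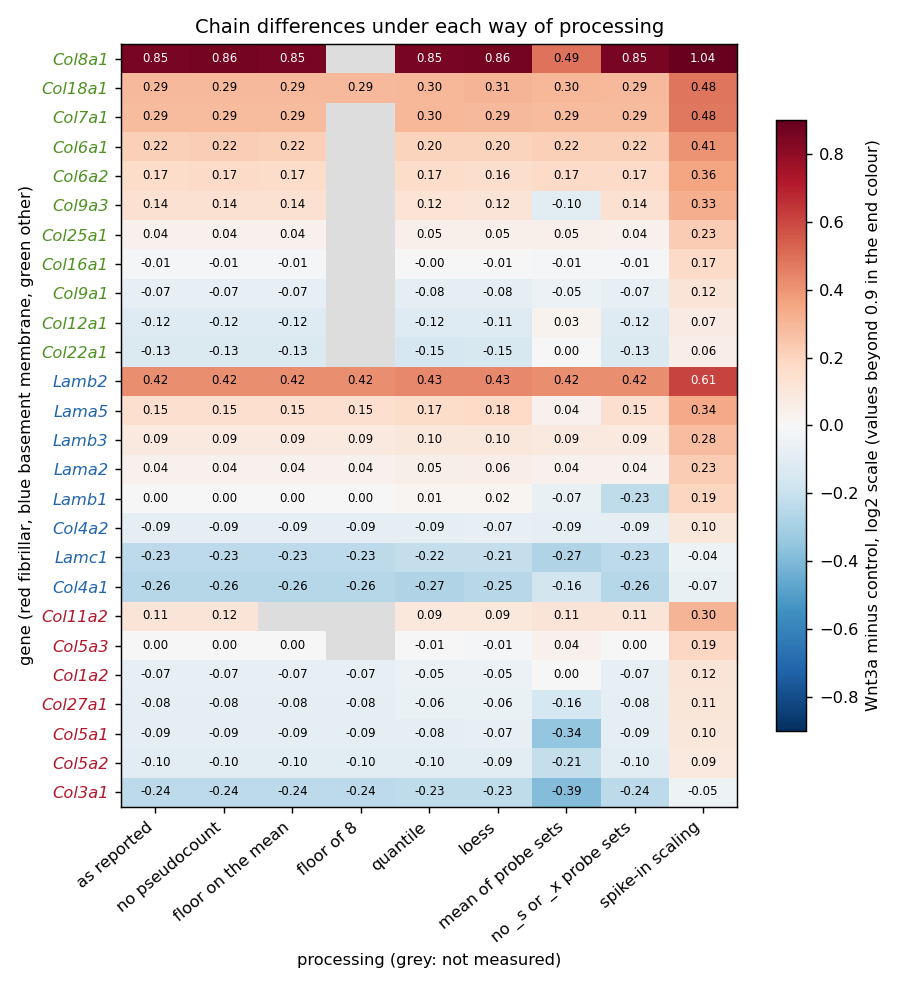
Difference of each measured chain (Wnt3a minus control, log2 scale) as reported and under the alternatives named on the columns, with gene rows ordered by class. Alternatives that change the floor leave a difference as it is, and grey marks a chain not measured under that setting. Scaling on the spike-in controls lifts every column entry by 0.19, and the mean over probe sets lowers Col8a1 to 0.49 and moves Col5a1 to -0.34.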

How the data were processed

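Primary myoblasts were profiled on 2 Affymetrix arrays, 1 control and 1 with Wnt3a, labelled from the RNA's 3′ end per the labels' protocols. The deposited table gives each probe set's intensity on both arrays. RMA, affy and limma were used by the authors, per the submitters' processing notes, which add no versions. The values ran from 7.07 to 37075, so the scale is linear. The sources used here do not give the step that made RMA output linear. Array medians were 57.9 and 58.7.

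Values were taken as log2(intensity + 1). Of 45101 probe sets, 64 control probe sets and those not assigned to 1 gene were left out, leaving 34945. RefSeq's gene table changed no symbol and supplied gene order. Each gene is its probe set with the highest mean log2 value. The thresholds were 0.32 on the log2 scale (1.25-fold) and 1.5-fold. With 1 array per group no test was run. Every member is named. Members past the threshold and Col1a1, Col1a2, Col3a1, Col4a1, Col4a2, Lama2, Lamb1 and Lamc1 have all their probe sets given. Each of the 5 pathway lists names its 3 largest differences. The members and lists were chosen with earlier results of these data known. A simulation with the same planted difference on every probe set of a gene checked only the computation, not variation between cultures. In addition, 9 alternatives were run. The software was Python 3.11.15 with pandas 2.3.3, numpy 2.4.6, matplotlib 3.10.9 and statsmodels 0.14.6.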

Additional observations from a re-analysis of the deposited data

How the results depend on the processing

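With 1 array per group, no setting can show how a difference would vary between cultures. No paired analysis was possible because each group is a single array. Under quantile normalization, removal of a loess trend (span 0.3), no pseudocount, a floor on the mean of both arrays and the removal of probe sets that can match several transcripts, 2 members were past 0.32 and 0 past -0.32, and the medians of the members and of the 3 classes moved by less than 0.12. A floor of 8 kept 14 members, with 1 past 0.32 (Lamb2; 2.18% of all genes) and 1 other collagen, Col18a1, so that this class's median was 0.29. Without a floor all 52 members counted, 27 of them lower (47.1% of all genes). With the mean of all probe sets, 2 members were past -0.32 (Col3a1 and Col5a1; 1.86% of all measured genes). Scaling on spike-in controls gave 8 members past 0.32 (14.8% of all measured genes) and 3 lower by any size (9.59%), with medians of 0.19 for all members, 0.11 for fibrillar, 0.21 for basement membrane and 0.33 for other chains. Dim members are the least certain, since their signal lay near the floor.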

Other observations

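Some measured chains are neighbours in the genome. The few pairs with no protein-coding gene between them each had 1 direction on the brightest probe sets, with scaling as reported. The share of all neighbouring gene pairs with 1 direction was not computed. Col3a1 (-0.24) and Col5a2 (-0.10) were both lower, as were Col4a1 (-0.26) and Col4a2 (-0.089), and Col6a1 (0.22) and Col6a2 (0.17) were both higher. Scaled on the spike-in controls, Col3a1 (-0.046) and Col5a2 (0.089) had opposite signs, as did Col4a1 (-0.070) and Col4a2 (0.10).

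Col18a1 (0.29) lies 2 protein-coding genes from Col6a1, and the 2 measured genes between them had a median of -0.040. Lamb2 (0.42) and Col7a1 (0.29) are separated by 17 protein-coding genes, of which 15 were measured and 11 were higher, with a median of 0.069. Lama5 (0.15) and Col9a3 (0.14) are separated by 8, of which 4 were measured and 3 were higher. Of all measured genes 47.3% were higher. These pairs were noticed after their values were seen, and no test bears on them.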
